A study of Mus musculus with 36 samples.

Results

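Digenic kidneys at birth were compared with kidneys that lacked Pkhd1 alone. The 3 digenic libraries carried Pkhd1-/- together with Pkd1-RC/RC, the 3 Pkhd1-/- libraries carried the knockout only, and all came from whole kidneys of C57BL/6 mice at postnatal day 0 (P0). The 6 libraries, of 36 in the series, were found by the identifying number that the sample titles and the column headers of the count table share. Both groups lack Pkhd1, so the comparison asks what the Pkd1-RC/RC genotype adds to a kidney without Pkhd1. The fit also held 3 Pkd1-RC/RC and 3 wild-type libraries of P0, and the same contrast was read again in 3 digenic and 3 Pkhd1-/- libraries each of postnatal days 3 and 12 (P3 and P12). The labels give each library its own number but do not say that each came from a separate mouse, so p-values measure the spread between these libraries, and they do not describe the knockout allele or say whether animals were pooled.

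Pkd1 encodes polycystin-1, a large membrane protein of the primary cilium and mutated in most families with the dominant form of polycystic kidney disease; the RC allele is a missense change that leaves part of its function. Fibrocystin, the product of Pkhd1, is lost in the recessive form of the disease and is also found at cilia, in tubule and bile duct cells. Loss of polycystin function in tubule epithelium is known to change cell growth, differentiation and the response to mechanical strain, and tubules dilate into cysts. YAP and TAZ, coactivators that are held in check by the Hippo kinases and act through TEAD factors on DNA, respond to strain and cell shape in many epithelia. The mouse kidney is still forming nephrons at birth, and its proximal tubules, which reabsorb and catabolise small molecules, go on maturing in the following weeks.

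Digenic and Pkhd1-/- kidneys differed at 44 of 18035 tested genes at P0, 0.244% of those tested, of which 31 (0.172%) rose and 13 (0.0721%) fell in digenic kidneys. A gene was called at an adjusted p under 0.05 in edgeR's quasi-likelihood fit, with p-values adjusted by the Benjamini-Hochberg method over all tested genes. Of the 44 genes, 34 differed by at least 2-fold (23 up, 11 down), 39 are annotated as protein coding and 5 as processed pseudogenes. The leading rises were Gdf15, a stress-induced secreted factor, and Ankrd1, a nuclear and sarcomeric ankyrin-repeat protein and a well-known target of YAP, both about 9.21-fold and 9.18-fold higher, followed by Havcr1, the injury marker KIM-1. The leading falls were Haao, an enzyme of tryptophan breakdown, and Miox, the enzyme that opens the inositol ring. An unadjusted p under 0.05 was reached by 2688 genes, and DESeq2 called 520, among them all 44.

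**Figure D1:**
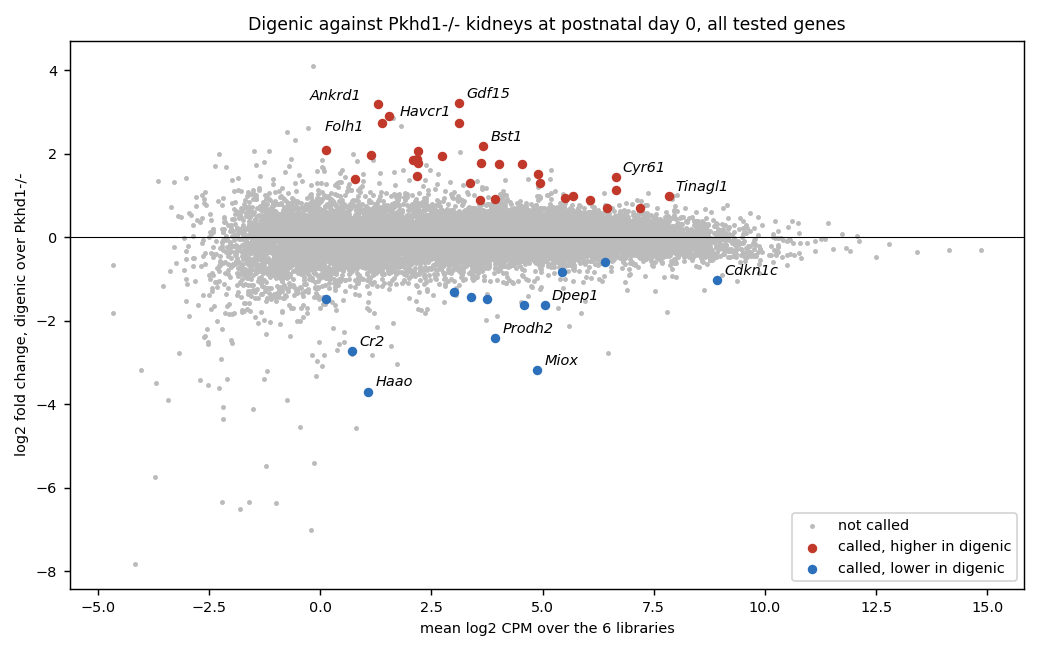
Mean log2 CPM over the 6 libraries (x axis) and log2 fold change of digenic over Pkhd1-/- kidneys (y axis) for the 18035 genes tested at P0; red points are the 31 called rises, blue points the 13 called falls and grey points genes that were not called. Ankrd1 and Gdf15 lie highest among the called genes at 3.20 and 3.20, and Haao lowest at -3.70.

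In the 44 called genes all 3 digenic libraries lay on one side of all 3 Pkhd1-/- libraries, a separation shown by 17.2% of all tested genes. The count of calls was sensitive to single libraries: it was 28, 19 and 23 without digenic replicate 1, 2 and 3, and 29, 20 and 306 without Pkhd1-/- replicate 1, 2 and 3. Of the 44 genes, 25, 19 and 20 were still called without those digenic libraries, and 23, 19 and 42 without those Pkhd1-/- libraries, while 13 were called in each of these 6 fits: Ankrd1, Gdf15, Bst1, Fgd3, Kcne1l, Tinagl1, Aim1, AU015836, Gm9825, Gm13443, Gm14292, Haao and Cdkn1c. Levels below are CPM, read counts scaled to a common library total, with TMM-scaled library sizes, given in the order of replicates 1, 2 and 3, and changes are log2 fold changes of digenic over Pkhd1-/- kidneys ± SE from the fit.

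Marker genes of other tissues set 2 Pkhd1-/- libraries apart and, for some tissues, the groups as well. Summed over 11 measured adrenal markers, Pkhd1-/- replicate 1 held 506 CPM, while the other 5 libraries held 24.8 to 37.5 CPM. Over 9 erythroid markers it held 3079 CPM. The groups did not overlap there, at 424 to 1016 CPM in digenic and 1190 to 3079 CPM in Pkhd1-/- libraries. The erythroid median was -0.97, or -0.52 without that library, with 0 called. Sums also lay apart over 4 fat markers (217 to 233 CPM in digenic, 260 to 377 CPM in Pkhd1-/- libraries). So did those over 12 gut, liver and pancreas markers (303 to 368 and 397 to 458 CPM). Over 7 muscle markers, of which 0 was called, Pkhd1-/- replicate 2 held 34.06 CPM and the other 5 libraries 6.203 to 14.85 CPM, and the median change of this list was -2.03, or -0.51 without that library. Among the 12 P0 libraries Pkd1-RC/RC replicate 2 also held adrenal transcripts, at 562 CPM. Xist and Ddx3y counts marked digenic libraries as 2 male and 1 female and Pkhd1-/- libraries as 1 male and 2 female, and for Pkhd1-/- replicate 1 this went against the sex in its column header. With the sex read from these counts as a term in the fit 79 genes were called, 42 of the 44 among them. Total counts of the 6 libraries ran from 56001163 to 74915165. The part of transcripts of these other tissues in the calls was not tested beyond the counts without Pkhd1-/- replicate 1 or 2.

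Pkhd1 itself (ENSMUSG00000043760, chromosome 1: 20057779 to 20618064, minus strand, mm10) was at 9.29, 9.23 and 10.7 CPM in digenic and 5.67, 9.76 and 6.38 CPM in Pkhd1-/- kidneys, with 87.6, 60.8 and 104 CPM in Pkd1-RC/RC and 76.4, 74 and 62.5 CPM in wild-type kidneys. All 6 libraries, labelled as without Pkhd1, thus held less of its RNA than every Pkd1-RC/RC and wild-type library. The difference between digenic and Pkhd1-/- was 0.42 ± 0.22 and was not called (adjusted p = 0.378 by edgeR). Pkd1 (ENSMUSG00000032855, chromosome 17: 24549834 to 24596508, plus strand), which carries a missense allele in digenic kidneys and whose level therefore checks no label, had 61.6, 75.9 and 62.9 CPM in digenic kidneys, against 47.6, 44.3 and 64.5 CPM in Pkhd1-/- kidneys, and Pkd2, which encodes its channel partner polycystin-2, had 114, 129.8 and 108 CPM in digenic kidneys, against 80.6, 66.9 and 121 CPM in Pkhd1-/- kidneys. Neither gene was called, with changes of 0.36 ± 0.19 and 0.39 ± 0.26 (edgeR adjusted p = 0.38 and 0.489), and the libraries overlapped for both.

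The promoters of the 2 leading rises and the 2 leading falls are shown because their letters can be set beside the lists below, YAP and TEAD targets among the rises and tubule enzymes among the falls. Each runs from 250 bases before to 50 bases after the RefSeq gene start (GRCm38.p6), 5′ to 3′ on the strand of the gene. Capitals mark the letters CATTCC on either strand, the core bound by TEAD factors, which stood in Ankrd1 and not in the windows of the other 3 genes. The windows are chr19:36119795-36120094 (minus strand) for Ankrd1, chr8:70632407-70632706 (minus strand) for Gdf15, chr17:83846741-83847040 (minus strand) for Haao and chr15:89334223-89334522 (plus strand) for Miox. The RefSeq starts lie 255, 0, 1173 and 75 bases from the outermost GENCODE start of these genes.
Ankrd1: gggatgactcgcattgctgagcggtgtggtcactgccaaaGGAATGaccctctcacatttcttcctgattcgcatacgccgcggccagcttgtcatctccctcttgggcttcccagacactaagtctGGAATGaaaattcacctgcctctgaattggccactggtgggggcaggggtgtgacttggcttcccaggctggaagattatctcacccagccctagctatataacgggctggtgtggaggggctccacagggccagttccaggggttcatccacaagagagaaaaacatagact
Gdf15: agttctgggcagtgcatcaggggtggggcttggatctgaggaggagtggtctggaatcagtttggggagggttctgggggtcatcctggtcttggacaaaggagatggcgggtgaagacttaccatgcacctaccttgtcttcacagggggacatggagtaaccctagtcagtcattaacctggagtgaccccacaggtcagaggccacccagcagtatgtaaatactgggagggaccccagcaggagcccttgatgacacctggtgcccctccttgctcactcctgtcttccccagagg
Haao: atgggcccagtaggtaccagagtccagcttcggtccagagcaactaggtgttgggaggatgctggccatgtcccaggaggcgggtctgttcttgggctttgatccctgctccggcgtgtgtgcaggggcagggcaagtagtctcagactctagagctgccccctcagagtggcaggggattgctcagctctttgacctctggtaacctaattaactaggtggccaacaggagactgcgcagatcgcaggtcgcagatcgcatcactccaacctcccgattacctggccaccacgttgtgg
Miox: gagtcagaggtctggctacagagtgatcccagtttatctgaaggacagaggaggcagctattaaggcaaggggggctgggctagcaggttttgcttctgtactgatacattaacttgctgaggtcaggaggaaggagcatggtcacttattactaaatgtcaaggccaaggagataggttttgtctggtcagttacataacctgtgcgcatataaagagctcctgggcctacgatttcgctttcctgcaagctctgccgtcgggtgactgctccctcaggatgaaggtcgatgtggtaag

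In the Ankrd1 window the TEAD core occurred at positions -210 to -205 and -123 to -118 from the gene start, both as GGAATG. Of all 32817 promoters 14.7% held the TEAD core. Entries were found for 28 of the 44 called genes: the TEAD core stood in 6 of 19 rises and 1 of 9 falls. The AP-1 letters TGANTCA, found in 7.81% of all promoters, stood in 3 of 19 rises and 0 of 9 falls. The other 3 motifs searched on both strands, CAAAGTCCA for HNF4 (0.475% of promoters), TGACGTCA for cAMP-response factors (1.79%) and TGATGCAA for C/EBP-ATF pairs (0.896%), stood in 1, 0 and 0 of the 19 rises and in 0 of the 9 falls each. These are matches of letters and say nothing about binding.

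Targets and regulators of the Hippo pathway were among the rises. Ankrd1 (ENSMUSG00000024803, chromosome 19: 36111961 to 36120099, minus strand) had 6.86, 6.89 and 8.31 CPM in digenic kidneys, against 0.839, 0.803 and 0.757 CPM in Pkhd1-/- kidneys. Its 3 digenic libraries lay far above every other P0 library, for Pkd1-RC/RC kidneys held 1.25, 1.06 and 1.61 CPM and wild-type kidneys 1.21, 1.52 and 1.51 CPM. The rise was 3.20 ± 0.24 with an adjusted p of 7.66e-05 in edgeR's fit, the smallest of any gene tested, and it ran from 3.10 to 3.25 when each of the 6 libraries was left out in turn. Cyr61, which encodes the matricellular protein CCN1, another YAP target, had 152, 156 and 193 CPM in digenic kidneys, against 65.7, 75.9 and 43 CPM in Pkhd1-/- kidneys, a rise of 1.44 ± 0.23 (adjusted p = 0.0166 by edgeR). Wild-type kidneys, at 115, 77.7 and 83.8 CPM, lay between both groups. Nuak2, a kinase of the AMPK family whose gene answers YAP, had 32, 41.6 and 56.8 CPM in digenic kidneys, against 13.7, 11.4 and 13.5 CPM in Pkhd1-/- kidneys and rose by 1.76 ± 0.25 (edgeR adjusted p = 0.00799). Wild-type kidneys again lay between, at 23.2, 24.3 and 20.7 CPM.

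F3, which encodes tissue factor, the starter of coagulation, had 20.4, 22.4 and 19.6 CPM in digenic kidneys, against 11.4, 10.7 and 11.2 CPM in Pkhd1-/- kidneys, a rise of 0.91 ± 0.16 (adjusted p = 0.0356, edgeR). All 3 digenic libraries lay near one level and so did the other 9 libraries of P0. Of 21 measured genes of the YAP and TAZ target list these 4 rose and 0 fell, with a median change of 0.38 over the list and 0.015 over all tested genes. Members that were not called included Nt5e, the ectonucleotidase CD73 (1.39 ± 0.30, edgeR adjusted p = 0.086), Amotl2 (0.88 ± 0.22, adjusted p = 0.128) and Ctgf, which encodes CCN2 (0.86 ± 0.24, adjusted p = 0.166). Without Pkhd1-/- replicate 1 the list kept 2 called members, Ankrd1 and Nuak2, and a median of 0.23. Nuak2 lost the call without Pkhd1-/- replicate 2 (1.67), Cyr61 without Pkhd1-/- replicate 1 or digenic replicate 2 or 3 (1.32 to 1.49), and F3 in each of the 6 fits but that without Pkhd1-/- replicate 3 (0.85 to 0.95).

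Amot and Wwc1, called genes outside the rule for named genes, and so chosen after their values were seen, encode parts of the same pathway. Amot, angiomotin, a junction protein that binds YAP, had 111, 108 and 116 CPM in digenic kidneys, against 60.2, 70.6 and 76.9 CPM in Pkhd1-/- kidneys, and the groups did not overlap (0.69 ± 0.12, edgeR adjusted p = 0.0356). Wwc1, the Hippo activator KIBRA, had 172, 196 and 189.9 CPM in digenic kidneys, against 105, 108 and 130.3 CPM in Pkhd1-/- kidneys (0.70 ± 0.13, edgeR adjusted p = 0.0465). Both calls were lost without any 1 of the 6 libraries other than Pkhd1-/- replicate 3 (0.59 to 0.71 and 0.64 to 0.75).

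**Figure D2:**
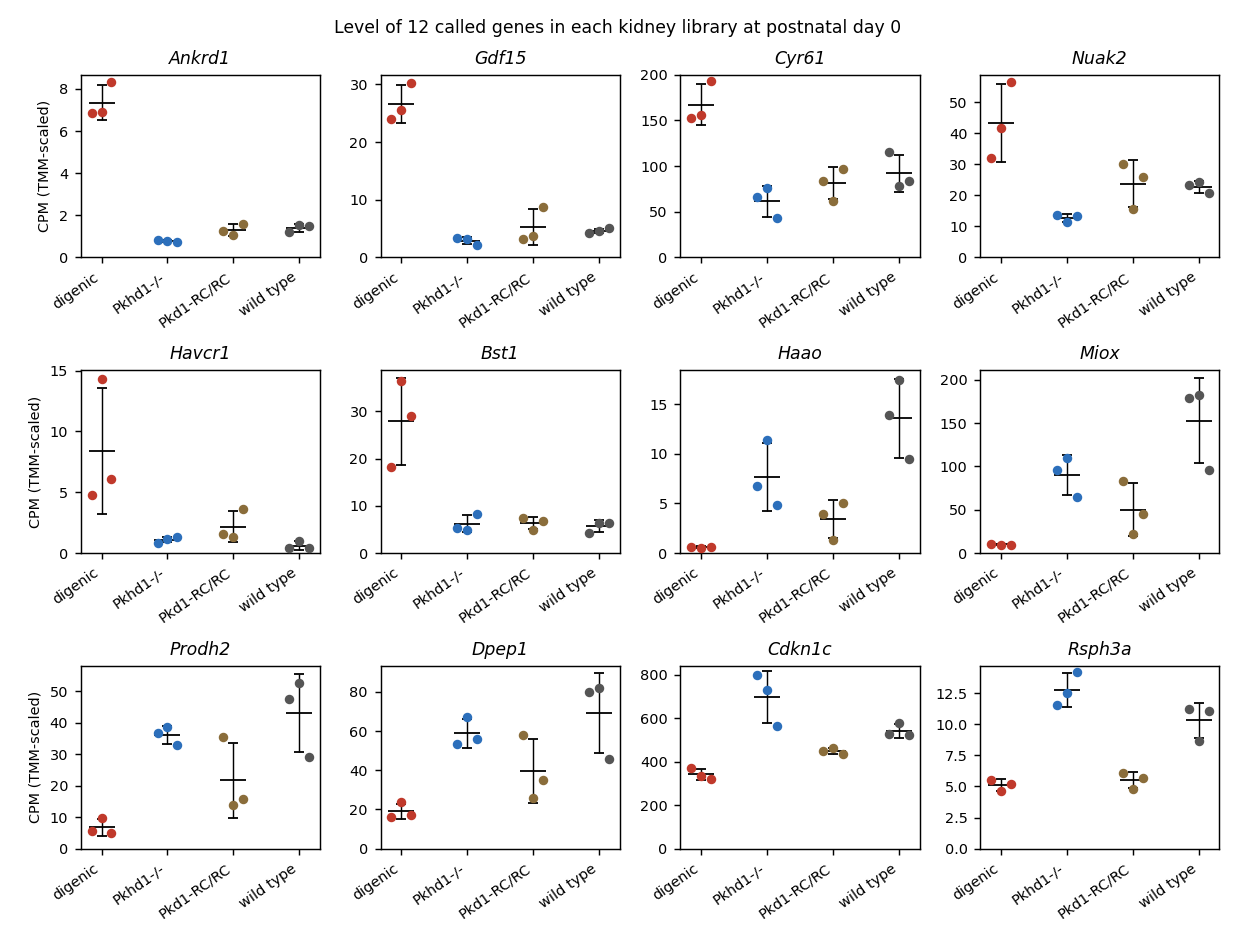
CPM in each P0 library (y axes, from 0) of 12 called genes, with groups from left to right digenic, Pkhd1-/-, Pkd1-RC/RC and wild type; points are single libraries, horizontal bars means and error bars SD (n = 3 each). The digenic points of Ankrd1, Gdf15 and Bst1 stand above all other libraries and those of Haao, Miox and Prodh2 below them.

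Genes of stress and injury were also among the rises. Gdf15 (ENSMUSG00000038508, chromosome 8: 70629393 to 70632456, minus strand) had 24, 25.6 and 30.3 CPM in digenic kidneys, against 3.3, 3.14 and 2.25 CPM in Pkhd1-/- kidneys. All 3 digenic libraries exceeded the other 9, of which the highest, in Pkd1-RC/RC kidneys, held 8.81 CPM. The rise of 3.20 ± 0.34 had an edgeR adjusted p of 0.00179 and ran from 3.05 to 3.30 over the 6 fits with a library left out. Havcr1, KIM-1, a phagocytic receptor that injured proximal tubule cells put on their surface, had 4.81, 14.3 and 6.06 CPM in digenic kidneys, against 0.839, 1.19 and 1.31 CPM in Pkhd1-/- kidneys. Digenic replicate 2 was far above the other digenic libraries, and Pkd1-RC/RC kidneys (1.56, 1.3 and 3.63 CPM) lay above wild-type kidneys (0.402, 1.01 and 0.40 CPM) in each library. The rise of 2.91 ± 0.52 (edgeR adjusted p = 0.0432) lost its call without digenic replicate 2 or 3 or Pkhd1-/- replicate 1 or 2, at 2.28 to 3.10.

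Krt80, a keratin of stressed and differentiating epithelia, had 8.27, 6.66 and 11.1 CPM in digenic kidneys, against 2.01, 2.11 and 2.99 CPM in Pkhd1-/- kidneys and rose by 1.87 ± 0.28 (edgeR adjusted p = 0.0129), a call lost without digenic replicate 3 or Pkhd1-/- replicate 1 or 2 (1.65 to 1.78). Of 26 measured tubular injury genes 2 rose, Gdf15 and Havcr1, and 0 fell, with a median of 0.35. Without Pkhd1-/- replicate 1 the count was 1. In the keratin and epithelial stress list 1 of 15 rose, Krt80, with a median of 0.43, and 0 without Pkhd1-/- replicate 1. Krt20, which was not called, stood at 2.04 ± 0.48 (edgeR adjusted p = 0.114). Gdf15 was also the only called member of 19 measured p53 targets (median 0.28) and of 23 genes of the integrated stress response (median 0.09), and 0 of 15 genes of the unfolded protein response was called (median 0.04).

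Bst1, Folh1 and Il5ra, which encode proteins of the cell surface, were further named rises. Bst1, the surface NAD glycohydrolase CD157 (ENSMUSG00000029082, chromosome 5: 43818885 to 43843986, plus strand, overlapping Fbxl5 on the other strand), had 18.2, 36.5 and 29 CPM in digenic kidneys, against 5.4, 4.91 and 8.21 CPM in Pkhd1-/- kidneys. Pkd1-RC/RC kidneys (7.41, 4.95 and 6.84 CPM) and wild-type kidneys (4.32, 6.37 and 6.46 CPM) lay with the Pkhd1-/- libraries, well below the digenic ones. The rise was 2.17 ± 0.29 (edgeR adjusted p = 0.00658). Folh1, the folate hydrolase also known as prostate-specific membrane antigen, had 4.74, 10.3 and 6.19 CPM in digenic kidneys, against 0.894, 0.698 and 1.59 CPM in Pkhd1-/- kidneys, 2.73 ± 0.47 (edgeR adjusted p = 0.0352). The groups did not overlap, and Pkd1-RC/RC replicate 1 at 4.18 CPM came close to the lowest digenic library. Il5ra, the interleukin-5 receptor chain, had 2.59, 2.01 and 2.1 CPM in digenic kidneys, against 0.474, 0.349 and 0.732 CPM in Pkhd1-/- kidneys and rose by 2.09 ± 0.36 (edgeR adjusted p = 0.0352). Folh1 lost the call without digenic replicate 2 or 3 or Pkhd1-/- replicate 1 or 2 (2.35 to 2.82), and Il5ra in each fit but that without Pkhd1-/- replicate 3 (1.87 to 2.16).

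Hsd3b3, a steroid dehydrogenase of liver and kidney in mice, had 10.6, 7.81 and 10.1 CPM in digenic kidneys, against 1.48, 3.02 and 2.31 CPM in Pkhd1-/- kidneys (2.06 ± 0.33, edgeR adjusted p = 0.0185). It belongs to a family of close copies whose reads can be split between genes, it overlaps Zfp697 on the other strand, and its value is uncertain. The remaining named rises were Fgd3, an exchange factor for the GTPase CDC42 (1.77 ± 0.21), Kcne1l, a potassium channel subunit (1.52 ± 0.20), Masp1, a protease of the lectin complement pathway (1.45 ± 0.20), Lect1, chondromodulin, an inhibitor of vessel growth in cartilage (1.39 ± 0.25), and the kinase gene Stk32a (1.31 ± 0.21). Their edgeR adjusted p-values were 0.00467, 0.00658, 0.00784, 0.0443 and 0.0213. Fgd3 had 18.9, 22.4 and 27.8 CPM in digenic kidneys, against 6.95, 4.98 and 8.36 CPM in Pkhd1-/- kidneys, and wild-type kidneys, at 10, 12 and 10.9 CPM, lay between. Masp1 lost the call without Pkhd1-/- replicate 2 (1.38), Hsd3b3 without digenic replicate 1 or 3 or Pkhd1-/- replicate 1 (1.83 to 2.01), Lect1 without digenic replicate 1 or 2 or Pkhd1-/- replicate 1 or 2 (1.23 to 1.41), and Stk32a in all of the 6 fits but that without Pkhd1-/- replicate 3 (1.12 to 1.35).

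The rest of the rises, chosen after their values were seen, included Tinagl1, a matricellular protein of tubular basement membranes, with 309.8, 347 and 303 CPM in digenic kidneys, against 159, 159.6 and 169 CPM in Pkhd1-/- kidneys. Its digenic libraries held a higher level than every other P0 library in the fit (0.98 ± 0.13, edgeR adjusted p = 0.00658). Aim1 (0.94 ± 0.13), Fam129a (1.13 ± 0.20), C1qtnf3 (1.30 ± 0.20), Gramd1b (0.89 ± 0.13), Diap3, a formin that builds actin filaments (0.89 ± 0.16), 1700016C15Rik (1.77 ± 0.33) and AU015836 (2.73 ± 0.37) also rose, with edgeR adjusted p-values from 0.00751 to 0.0465. Aim1 and Gramd1b overlap genes on the other strand. Gramd1b lost the call without digenic replicate 2 or 3 or Pkhd1-/- replicate 2 (0.82 to 0.88), 1700016C15Rik without digenic replicate 1 or 2 or Pkhd1-/- replicate 1 or 2 (1.5 to 1.89), Fam129a in each fit but that without digenic replicate 1 (0.85 to 1.23), and C1qtnf3 and Diap3 in each but that without Pkhd1-/- replicate 3 (1.13 to 1.33 and 0.85 to 0.94).

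Enzymes of the proximal tubule led the falls. Haao (ENSMUSG00000000673, chromosome 17: 83831156 to 83847963, minus strand), 3-hydroxyanthranilate dioxygenase of the kynurenine route from tryptophan to NAD, had 0.655, 0.462 and 0.652 CPM in digenic kidneys, against 6.75, 11.4 and 4.81 CPM in Pkhd1-/- kidneys. Digenic libraries were below all others, with 3.95, 1.35 and 5.07 CPM in Pkd1-RC/RC and 13.9, 17.4 and 9.46 CPM in wild-type kidneys. The fall was -3.70 ± 0.48 with an edgeR adjusted p of 0.00658, and it ran from -3.95 to -3.31 when each of the 6 libraries was left out. Miox (ENSMUSG00000022613, chromosome 15: 89334398 to 89337015, plus strand), myo-inositol oxygenase, made almost wholly in proximal tubules, had 10.4, 9.59 and 9.72 CPM in digenic kidneys, against 96, 109 and 64.8 CPM in Pkhd1-/- kidneys. The 3 digenic values lay within 1 CPM of each other, below Pkd1-RC/RC kidneys at 83.4, 22.4 and 44.8 CPM and wild-type kidneys at 179, 183 and 96.2 CPM. It fell by 3.18 ± 0.42 (edgeR adjusted p = 0.00751), and the call was lost without digenic replicate 2 or 3 (-3.16 and -3.17).

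Prodh2, the hydroxyproline dehydrogenase, had 5.53, 9.85 and 4.83 CPM in digenic kidneys, against 36.8, 38.8 and 32.9 CPM in Pkhd1-/- kidneys (-2.42 ± 0.37, edgeR adjusted p = 0.0143). Dpep1, the brush-border dipeptidase, had 15.9, 23.6 and 17.4 CPM in digenic kidneys, against 53.3, 67.3 and 56 CPM in Pkhd1-/- kidneys (-1.64 ± 0.29, edgeR adjusted p = 0.0385). For both, every digenic library was below every Pkhd1-/- library, and wild-type kidneys held 47.6, 52.8 and 29 and 80.1, 81.9 and 45.6 CPM. Prodh2 lost the call without digenic replicate 1 or 3 or Pkhd1-/- replicate 1 or 2 (-2.42 to -2.23), and Dpep1 in each fit but that without Pkhd1-/- replicate 3 (-1.82 to -1.53). In whole kidneys fewer tubule cells and less RNA per cell cannot be told apart.

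Most other markers of the proximal tubule were not called in edgeR's fit of P0. Of 36 measured proximal tubule markers 1 fell, Miox, and 0 rose, with a median change of -0.27 and changes from -3.18 to 1.04. The median was -0.56 without Pkhd1-/- replicate 1, -0.44 without digenic replicate 2 and -0.11 without Pkhd1-/- replicate 2, and 0 fell without digenic replicate 2 or 3, against 3 without Pkhd1-/- replicate 3. The count of called markers depended on the method: 7 of the 36 fell by DESeq2's test and 10 when 36 libraries were fitted, while 0 rose by either. At an unadjusted p under 0.05 in edgeR's fit of P0, 15 of these markers were lower and 1 was higher. The summed level of these markers was 6409 to 7453 CPM in digenic libraries and 6430 to 11240 CPM in Pkhd1-/- libraries, so the groups overlapped. Lrp2, the endocytic receptor megalin that marks this segment, stood at -0.18 ± 0.25 and Hnf4a, its transcription factor, at 0.45 ± 0.14, neither called (edgeR adjusted p = 0.765 and 0.195). The part of proximal tubule content in the falls was not tested. In the list of inositol and amino acid catabolism 2 of 22 fell, Miox and Prodh2, and 0 rose (median -0.18). Of this list 0 fell without digenic replicate 3 and 1 without digenic replicate 1 or 2 or Pkhd1-/- replicate 1 or 2, and the median ran from -0.29 to -0.08 over the 6 fits. In the kynurenine and NAD list 1 of 17 rose, Bst1, and 1 fell, Haao (median 0.13), while Kmo and Kynu, the enzymes just before Haao, stood at 0.98 ± 0.51 and 0.44 ± 0.44 and were not called.

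Cdkn1c, the imprinted cell-cycle inhibitor p57 that podocytes and other differentiating kidney cells hold, was among the falls. It had 372, 333 and 320.1 CPM in digenic kidneys, against 799, 729.9 and 565 CPM in Pkhd1-/- kidneys, and Pkd1-RC/RC kidneys, at 448, 465 and 438 CPM, lay between, while wild-type kidneys, at 528, 581 and 522 CPM, reached the lowest Pkhd1-/- library. The change was -1.03 ± 0.13 (edgeR adjusted p = 0.00658), and the antisense gene Gm44732 overlaps it. In a fit of the 6 libraries alone the change was -1.04 and not called (edgeR adjusted p = 0.0549). Of 16 podocyte markers 0 was called, with a median of -0.01. Of 25 cell cycle genes 0 was called and 24 were above 0, with a median of 0.30; Mki67, the proliferation marker, had 104, 101 and 127 CPM in digenic kidneys, against 74, 79.4 and 69.6 CPM in Pkhd1-/- kidneys (0.58 ± 0.17, edgeR adjusted p = 0.174), without overlap.

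Cr2, the complement receptor CD21 of B cells and follicular dendritic cells, had 0.379, 0.885 and 0.799 CPM in digenic kidneys, against 1.7, 6.57 and 5.63 CPM in Pkhd1-/- kidneys (-2.74 ± 0.48, edgeR adjusted p = 0.0388). The call was lost without any digenic library or without Pkhd1-/- replicate 2 (-2.96 to -2.41). Over 6 measured lymphocyte markers the summed level was 12.3 to 16.2 CPM in digenic and 17.5 to 20.6 CPM in Pkhd1-/- libraries, and the part of lymphocytes in the Cr2 difference was not tested. Nsg2, a vesicle protein best known from neurons, had 5.0, 7.52 and 6.71 CPM in digenic kidneys, against 14.8, 21 and 15.8 CPM in Pkhd1-/- kidneys (-1.42 ± 0.21, edgeR adjusted p = 0.00988), lost without digenic replicate 1 (-1.28). Prss53, a serine protease gene that shares sequence with the overlapping read-through gene Gm21974, fell by 1.48 ± 0.24, and Ndrg2, a differentiation-linked gene, by 0.59 ± 0.11 (edgeR adjusted p = 0.0185 and 0.0448). Prss53 lost the call without Pkhd1-/- replicate 2 or any digenic library (-1.58 to -1.26), and Ndrg2 in each fit but that without Pkhd1-/- replicate 3 (-0.62 to -0.57). Gm21974 (-0.84 ± 0.15) and Gm10283 (-1.48 ± 0.27), chosen after their values were seen, completed the falls (edgeR adjusted p = 0.0356 and 0.0438), and both lost the call in each fit but that without Pkhd1-/- replicate 3 (-0.88 to -0.71 and -1.56 to -1.39).

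Few called genes lay near the mutated loci. Within 20 Mb of Pkd1 on chromosome 17, 2 of 536 tested genes were called (0.373%), against 42 of 17319 (0.243%) away from both loci and 0 of 180 within 20 Mb of Pkhd1. Rsph3a, which encodes a spoke protein of motile cilia and lies at 7945614 to 7979824, had 5.55, 4.62 and 5.18 CPM in digenic kidneys, against 11.6, 12.5 and 14.2 CPM in Pkhd1-/- kidneys (-1.32 ± 0.18, edgeR adjusted p = 0.00658). Pkd1-RC/RC kidneys, at 6.04, 4.78 and 5.71 CPM, overlapped the digenic libraries, and wild-type kidneys, at 11.2, 8.68 and 11.1 CPM, lay between those and the Pkhd1-/- libraries. Dynlt1b, a dynein light chain gene with near-identical copies beside it, had 8.17, 8.09 and 8.03 CPM in digenic kidneys, against 2.7, 1.89 and 2.13 CPM in Pkhd1-/- kidneys (1.85 ± 0.34, edgeR adjusted p = 0.0448), is uncertain, and lost the call without any 1 of the 6 libraries (1.73 to 2.01). Rsph3a lost it without digenic replicate 2 (-1.25). Haao also lies on chromosome 17, outside that window.

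Processed pseudogenes, which may share reads with their parent genes, included some with one level in both genotypes that carry the RC allele and another in both that do not. Gm9825 had 29.2, 26.5 and 33.3 CPM in digenic kidneys, against 9.4, 9.34 and 7.69 CPM in Pkhd1-/- kidneys, with 25.7, 28.2 and 36 CPM in Pkd1-RC/RC and 11.6, 9.39 and 11.2 CPM in wild-type kidneys. Gm13443 (1.94 ± 0.25), Gm14292 (1.98 ± 0.22) and Gm15487 (0.98 ± 0.14) likewise were high in digenic and Pkd1-RC/RC kidneys and low in Pkhd1-/- and wild-type kidneys. Gm10709 differed: it was at 15.6, 12.7 and 13.8 CPM in digenic kidneys, against 66.3, 29.2 and 35.1 CPM in Pkhd1-/- kidneys, while Pkd1-RC/RC libraries held 13.2, 14.5 and 15.2 CPM and wild-type libraries 15.7, 16.4 and 16.4 CPM, so the Pkhd1-/- libraries stood apart from the other 3 genotypes. These 5 genes, chosen after their values were seen, lie on chromosomes 2, 6 and 9 and all passed in edgeR's test (adjusted p from 0.00109 to 0.0128). Gm10709 lost the call without digenic replicate 2 or 3 (-1.57 and -1.62) and Gm15487 without digenic replicate 2 or Pkhd1-/- replicate 2 (0.95 and 0.99).

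Most gene lists held no called member in edgeR's fit of P0, and their medians are given as descriptions. DESeq2 and the fit of all 36 libraries, which called 520 and 1174 genes in all, called members in some of them. Ligands and receptors of the EGF family, which drive epithelial growth, had 0 called of 10 measured and a median of 0.52. With DESeq2 4 of them rose, and 5 in the fit of all 36 libraries. Btc, the ligand betacellulin, had 62.9, 58.2 and 76 CPM in digenic kidneys, against 29.2, 13.5 and 21.7 CPM in Pkhd1-/- kidneys (1.61 ± 0.31, edgeR adjusted p = 0.059), without overlap, and Nrg1, neuregulin, and the receptor gene Egfr stood at 1.60 ± 0.38 and 0.93 ± 0.25. The organic ion transporters of the SLC22 family had 0 called of 17, with 15 below 0 and a median of -0.81. With DESeq2 6 of them fell, and 8 in the fit of all 36 libraries. Slc22a7 had 0.379, 0.757 and 0.16 CPM in digenic kidneys, against 1.72, 2.88 and 2.85 CPM in Pkhd1-/- kidneys (-2.51 ± 0.51, edgeR adjusted p = 0.0757), without overlap.

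Intercalated cells, the acid and base secreting cells of the collecting duct, had 0 called of 17 markers, 15 of them below 0, and a median of -0.57. With DESeq2 4 of them fell, with all 36 libraries in the fit 8 and with sex as a covariate 2, while 0 rose in each. Their summed level overlapped, at 705.7 to 763 CPM in digenic and 666.4 to 819.4 CPM in Pkhd1-/- libraries. Slc26a4, pendrin, stood at -1.40 ± 0.32 and Foxi1, the factor that specifies these cells, at -0.57 ± 0.20 (edgeR adjusted p = 0.11 and 0.24). The median was -0.36 in 15 genes of the loop of Henle, 0.16 in 13 genes of principal cells and -0.10 in 16 genes of nephron progenitors, with 0 called in each. Without Pkhd1-/- replicate 3 the loop of Henle median was -0.06 and that of principal cells 0.31, and without Pkhd1-/- replicate 1 that of nephron progenitors was -0.05. For 21 genes of oxidative phosphorylation it was -0.23, with 20 below 0, and -0.16 with the gene length trend removed. Deviations from the mean level correlated with gene length at 0.004, 0.142 and 0.156 in digenic libraries. In Pkhd1-/- libraries the correlations were -0.196, -0.108 and 0.096. The part of this trend in the shift was not tested further. Immune lists also held 0 called genes at birth in edgeR's fit of P0. The median was -0.02 for 20 macrophage genes, -0.32 for 20 interferon response genes and -0.23 for 15 genes of antigen presentation, the last at -0.07 without Pkhd1-/- replicate 2. Summed macrophage levels were nevertheless apart, at 295.2 to 331.4 CPM in digenic and 254.8 to 280.4 CPM in Pkhd1-/- libraries. DESeq2 called 2 macrophage rises and 1 fall, and the fit of all 36 libraries 2 rises and 0 falls. Summed interferon response levels were also apart, at 277.6 to 305.6 CPM in digenic and 335.5 to 369.6 CPM in Pkhd1-/- libraries. Those of antigen presentation overlapped. Of 8 neutrophil genes 8 were below 0, with a median of -0.96, or -0.78 with the gene length trend removed. Over the fits with 1 of the 6 libraries left out the median ran from -1.20 to -0.70. The summed level of the neutrophil genes was 12.3 to 23.9 CPM in digenic libraries and 29.5 to 33.1 CPM in Pkhd1-/- libraries, without overlap.

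**Figure D3:**
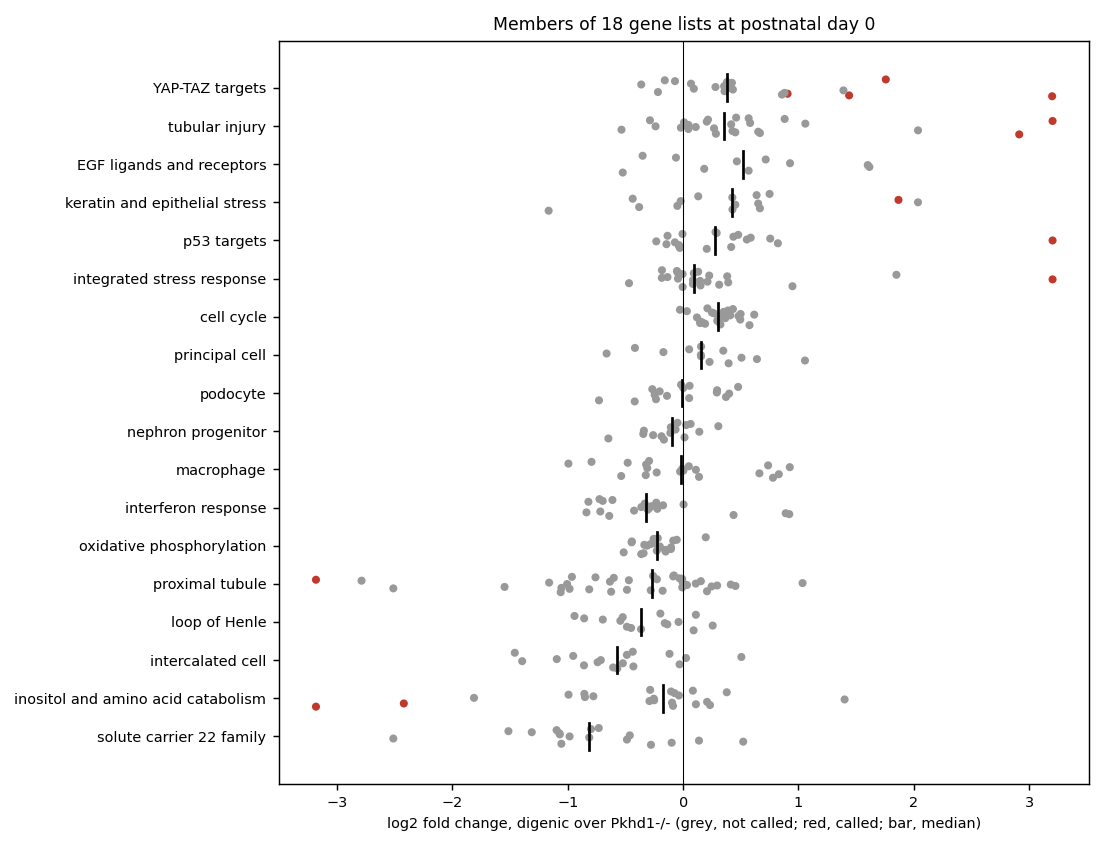
Log2 fold change of digenic over Pkhd1-/- kidneys at P0 (x axis) for each measured member of 18 gene lists (rows); red points were called, grey points were not, and black bars are list medians. Called members lie at the right in the YAP-TAZ, injury, keratin, p53 and stress response rows and at the left in the proximal tubule and catabolism rows, while of the rows shown the SLC22 and intercalated cell medians lie lowest at -0.81 and -0.57.

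The effect of the RC allele could also be read with Pkhd1 present, in 3 Pkd1-RC/RC and 3 wild-type libraries that are not among the 6. Of the 44 genes 42 had the same sign there, 29 of 31 rises above 0 and 13 of 13 falls below 0, where 62.1% of all tested genes have the same sign in both contrasts. The changes were smaller: the median of Pkd1-RC/RC over wild type was 0.66 for the rises and -0.39 for the falls, beside medians of 1.75 and -1.48 for digenic over Pkhd1-/-, whose sizes were the ground for choosing these genes. Only the pseudogenes Gm9825 (1.49 ± 0.17), Gm13443 (1.90 ± 0.25) and Gm14292 (1.66 ± 0.22) were called there, 3 of 18035 genes tested (0.0166%; 1880 at an unadjusted p under 0.05).

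Within the 44, the estimated change with Pkhd1 present varied in size. None of the genes named next was called there, and differences between genes were not tested. Haao changed by -1.98 ± 0.43 and Miox by -1.60 ± 0.39 in Pkd1-RC/RC over wild type, without a call (edgeR adjusted p = 0.244 and 0.362). Havcr1 stood at 1.82 ± 0.52, Folh1 at 1.94 ± 0.47 and Hsd3b3 at 1.47 ± 0.32. By contrast Ankrd1 (-0.12 ± 0.22), Cyr61 (-0.18 ± 0.22), Nuak2 (0.07 ± 0.24), Gdf15 (0.18 ± 0.31), Bst1 (0.16 ± 0.28), Fgd3 (0.03 ± 0.21) and F3 (0.03 ± 0.16) lay near 0 there.

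The difference between both effects of the RC allele was tested as an interaction. Ankrd1 was the 1 gene called of 18035 (0.00554%), with an interaction of 3.31 ± 0.32 (edgeR adjusted p = 0.00188). An unadjusted p under 0.05 was reached by 1067 genes, and DESeq2 called 8. Gdf15 (3.02 ± 0.45), Bst1 (2.01 ± 0.40), Fgd3 (1.73 ± 0.29), Nuak2 (1.69 ± 0.34) and Cyr61 (1.62 ± 0.31) missed the threshold, with edgeR adjusted p-values of 0.125, 0.689, 0.29, 0.689 and 0.689. Leaving out Pkd1-RC/RC replicate 3 gave 3 called genes.

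**Figure D4:**
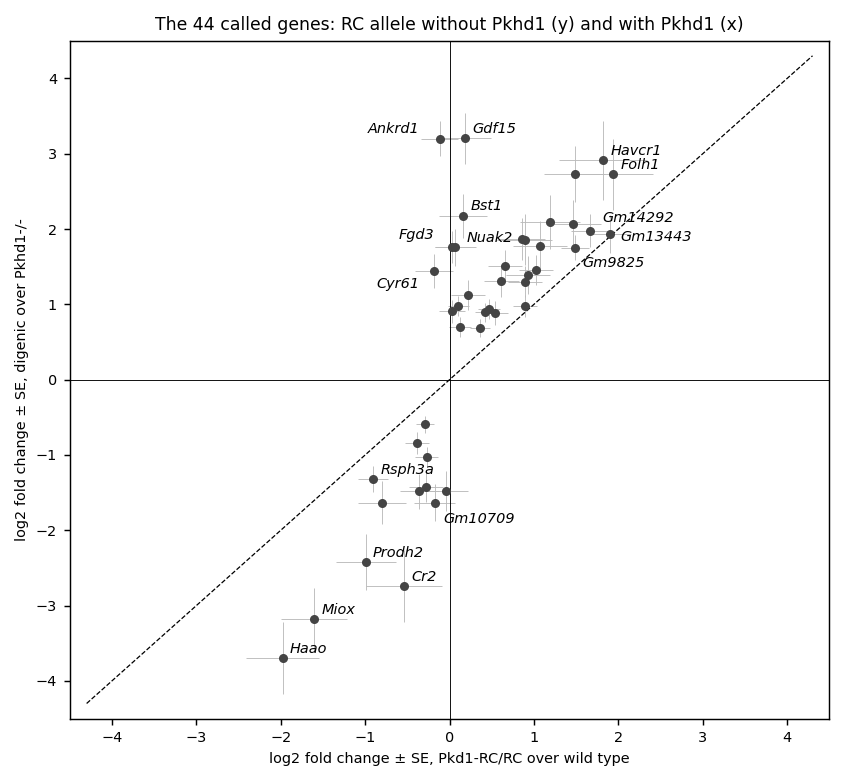
Log2 fold change ± SE of digenic over Pkhd1-/- kidneys (y axis) and of Pkd1-RC/RC over wild-type kidneys (x axis) at P0 for the 44 called genes; the dashed line marks equal change. Ankrd1, Gdf15 and Bst1 lie far above the line at x near 0, and the pseudogenes Gm9825 and Gm13443 close to it.

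The same contrast was then read in other libraries at P3 and P12. At P3 31 of 31 rises were above 0 and 12 of 13 falls below 0, where 49.9% of all genes tested were above 0. In the same direction 28 genes were called, 22 rises and 6 falls, where 2.65% and 0.837% of all genes tested were called higher and lower. At P12 29 of 31 rises were above 0 and 13 of 13 falls below 0, where 48.9% of all genes tested were above 0. Called in the same direction were 31, 23 rises and 8 falls, where 15.5% and 12.6% of all genes were called higher and lower. None was called in the opposite direction at either age, and 21 were called at all 3 ages: Ankrd1, Havcr1, F3, Fam129a, Krt80, Aim1, Fgd3, Masp1, Hsd3b3, Dynlt1b, 1700016C15Rik, AU015836, Gm9825, Gm13443, Gm14292 and Gm15487 among the rises, and Miox, Dpep1, Nsg2, Rsph3a and Gm10709 among the falls. The count of 28 was 15 and 17 without Pkhd1-/- replicate 1 and 3 of P3 and 18 without digenic replicate 2 of P3. By Xist and Ddx3y counts the 3 digenic libraries of P3 were female and the 3 Pkhd1-/- libraries male, so sex and genotype cannot be told apart at that age.

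Havcr1, Ankrd1, Gdf15 and Fam129a were followed over the 3 ages. Havcr1 was at 10.6, 21 and 2.92 CPM in digenic and 0.638, 0.99 and 0.57 CPM in Pkhd1-/- kidneys at P3, and at 11.7, 11.7 and 7.33 CPM and 0.415, 0.402 and 0.581 CPM at P12. The groups were apart at each age, with differences of 2.91 ± 0.52, 3.95 ± 0.69 and 4.46 ± 0.45 at P0, P3 and P12. Ankrd1 was at 4.05, 5.29 and 1.37 CPM in digenic and 0.776, 1.02 and 0.983 CPM in Pkhd1-/- kidneys at P3, and at 5.91, 4.72 and 2.99 CPM and 2.63, 2.16 and 2.29 CPM at P12. Its difference was 3.20 ± 0.24, 1.94 ± 0.38 and 0.94 ± 0.31. Gdf15 stood at 3.20 ± 0.34, 1.34 ± 0.36 and 2.24 ± 0.15, called at P0 and P12, and Fam129a at 1.13 ± 0.20, 1.13 ± 0.22 and 2.07 ± 0.14. Of the other called YAP and TAZ targets, F3 was called at all 3 ages, and Nuak2 and Cyr61 were not. From P0 to P12 the difference moved by -1.58 ± 0.36 for Nuak2, -0.24 ± 0.44 for Cyr61 and 0.47 ± 0.21 for F3. These changes come from the fit of all 36 libraries, where only that of Nuak2 was called.

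The named tubule enzymes were followed in the same way. Miox was at 237, 222 and 339.7 CPM in digenic and 593, 488 and 563 CPM in Pkhd1-/- kidneys at P3, and at 256, 282 and 269 CPM and 779.8, 993 and 890.2 CPM at P12. Its difference was -3.18 ± 0.42, -1.04 ± 0.16 and -1.72 ± 0.17 at P0, P3 and P12. Haao stood at -3.70 ± 0.48, -0.56 ± 0.25 and -1.55 ± 0.31, called at P0 and P12 but not at P3, and Prodh2 at -2.42 ± 0.37, -0.84 ± 0.14 and -0.48 ± 0.19, called at P0 and P3. Dpep1 was called at all 3 ages, at -1.64 ± 0.29, -1.05 ± 0.11 and -1.25 ± 0.20. Folh1 and Bst1, called at P0 and P3, stood at -0.02 ± 0.34 and 0.11 ± 0.13 at P12.

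In 1 fit of all 36 libraries the difference itself changed between P0 and P12 for 17 of the 44 genes, where 9.57% of all genes tested did, and between P0 and P3 for 4, where 0.388% did. The 17 were 9 rises and 8 falls, and the difference moved toward 0 in 8 of the 9 and in all 8. This test was added after the data were seen, and the P0 difference by which the genes were chosen enters it, so a shift toward 0 is favoured by the choice.

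**Figure D5:**
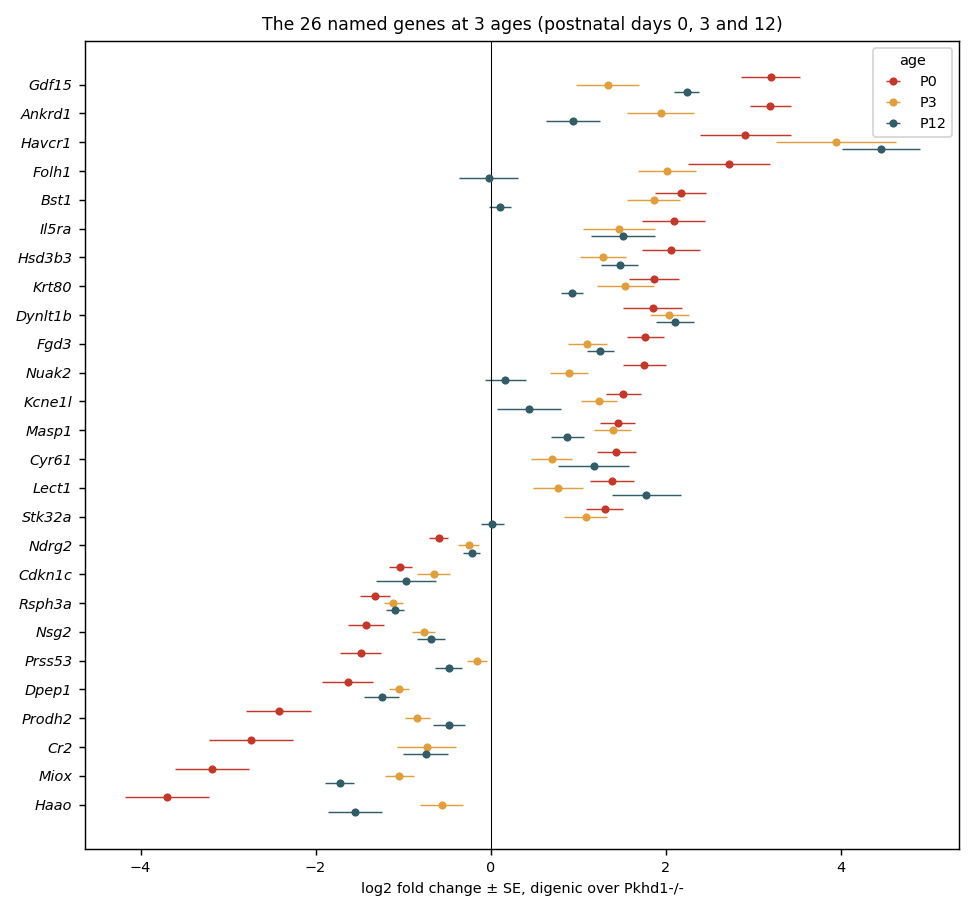
Log2 fold change ± SE of digenic over Pkhd1-/- kidneys (x axis) for the 26 named genes (rows) at P0, P3 and P12. Gdf15, Ankrd1 and Havcr1 lie to the right at each age, Havcr1 farthest at P12 (4.46), and Folh1 and Bst1 lie near 0 at P12.

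Wild-type kidneys give the normal course of these genes, in libraries outside both groups. Between P0 and P12 49.8% of all tested genes changed in wild type by edgeR's test. Of the 31 rises 13 were higher and 5 lower at P12 than at P0, and of the 13 falls 4 were higher and 4 lower. Among all tested genes 26.2% were called higher and 23.6% lower. Called genes that were lower at P12 are not named here. Among the falls Miox (2.42 ± 0.30), Dpep1 (1.39 ± 0.23) and Prodh2 (0.96 ± 0.27) were higher in wild-type kidneys at P12, whereas Haao (-0.81 ± 0.36, edgeR adjusted p = 0.0617) did not pass the test. Among the rises Folh1 was also higher with age, by 6.33 ± 0.50 at P12, with 54.5 ± 13.0 CPM at P12 and 0.690 ± 0.283 CPM at P0 (SD, n = 3 each), and so were Nuak2 (2.60 ± 0.26) and Krt80 (1.95 ± 0.28). Ankrd1 (0.56 ± 0.32) and Havcr1 (-0.15 ± 0.62) did not pass the test in wild-type kidneys.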

How the data were processed

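RNA of whole kidneys was sequenced as paired-end reads of 150 bases. Per the submitters' processing notes, the tools named are TopHat2 with Bowtie, featureCounts and edgeR, on mm10, and the MAP-RSeq pipeline was version 2.1.0; whether libraries were stranded was not stated. The deposited table gives raw counts per gene, per the file headers, for 18049 genes, and the gene length as another deposited value. Its 36 columns of normalized values and the authors' fold changes were not used. Columns were matched to samples by the number in the title; the P12 digenic replicate 1 column carries P3 in its header and the P12 Pkd1-RC/RC replicate 2 column Pkhd1, and the labels were followed. That Pkd1-RC/RC column held 229.7 CPM of Pkhd1, near the 214 to 224 CPM of its group, and Pkhd1-/- libraries held 18.9 to 20.1 CPM. The P12 digenic libraries held 32.33, 20.36 and 18.64 CPM of Pkhd1, and the age of replicate 1 was not checked beyond its label.

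Counts were tested with edgeR 4.0.16 (filterByExpr, TMM, robust glmQLFit) in R 4.3.3 on the 12 libraries of an age with a term per genotype, leaving 18035 genes at P0, 18043 at P3 and 18002 at P12. P-values were Benjamini-Hochberg adjusted over all of them, and 0.05 was the threshold. Wild-type P12 against P0 came from all 36 libraries. The P0 fit has 8 residual degrees of freedom. Alternatives were DESeq2 1.42.0, other filters and scalings, a replicate block, sex, a gene length trend, other sets of libraries, and leaving out each library. The tests were tried on simulated counts. Replicates of a group differed by far more than counting error (chi-square per gene 107.5 to 209).

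Up to 16 rises and 14 falls were named by size among called genes with an official symbol, a mean log2 CPM of at least 0 and no overlap of the groups (16 and 10 qualified), besides Pkhd1, Pkd1, Pkd2, called genes within 20 Mb of Pkd1 or Pkhd1, called genes of the interaction, and up to 4 members of each of 47 gene lists. The members and lists were chosen with earlier results of these data known. Positions came from GENCODE M21, which held 17864 of the identifiers (99.0%), and promoters from RefSeq. A further promoter motif is not reported here.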

Additional observations from a re-analysis of the deposited data

Results flagged for a closer look

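Ankrd1 was picked out because the effect of the RC allele on it differed by 3.31 on the log2 scale between kidneys without and with Pkhd1, by the interaction test. The digenic minus Pkhd1-/- difference also changed with age in the fit of all 36 libraries, a test added after the data were seen. From P0 to P3 the change was called for Gm10283 (2.09), Haao (3.17), Miox (2.17) and Prss53 (1.36), in each case upward from a fall at P0. From P0 to P12 it was downward for Ankrd1 (-2.24), Bst1 (-2.06), C1qtnf3 (-0.79), Diap3 (-1.01), Folh1 (-2.73), Gramd1b (-0.85), Nuak2 (-1.58) and Stk32a (-1.27), all rises at P0. It was upward for Cr2 (2.01), Gm10283 (1.29), Gm21974 (0.79), Haao (2.17), Miox (1.48), Nsg2 (0.76), Prodh2 (1.96) and Prss53 (1.02), all falls at P0, and for Fam129a (0.96), a rise that became larger. Since the P0 difference chose these genes and enters the change, a shift toward 0 is favoured by the choice. The changes with age were not refitted with single libraries left out, and no separate test for outlying values was run in groups of 3.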

How the results depend on the processing

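The count of 44 called genes was within 1.5 times under another scaling, other filters, a fit without robust estimation, removal of the gene length trend (39, with 37 of the 44 among them) and a fit of the 6 libraries alone (35, with 28 of the 44). The fit of 6 lost Cr2, Gm10709, Gm10283, Cdkn1c, Gm21974, Ndrg2, Amot, Wwc1, Diap3, Gramd1b, F3, Fam129a, Stk32a, Lect1, 1700016C15Rik and Il5ra. The count was 520 with DESeq2, 1174 with all 36 libraries in the fit, 79 with sex as a covariate and 25 with the replicate block, and 19 to 306 when 1 library was left out. The share of calls that were higher was 70.5%, and 50.2%, 50.6% and 53.2% with DESeq2, 36 libraries and sex. The 44 were all called with DESeq2 and with 36 libraries, and 12 were called in all 22 alternatives. The interaction count of 1 was 8 with DESeq2, 13 with 36 libraries and 1 to 3 with a library left out. The count of 28 at P3 was 15 to 31, that of 31 at P12 28 to 32 and that of 8986 genes changed in wild type 7461 to 9151 with a library left out. The cause of these shifts was not tested. The count at P12 was 31 without Pkd1-RC/RC replicate 2, an alternative added after the data were seen. With 1 of the 6 libraries left out, list medians ran from -0.18 to 0.14 for the unfolded protein response, from -0.013 to 0.155 for the integrated stress response, from -0.11 to 0.06 for podocytes, from 0.02 to 0.14 for kynurenine and NAD, from 0.26 to 0.58 for keratins and from 0.25 to 0.47 for the cell cycle. Replicate numbers did not pair the libraries (correlation of same-numbered deviations 0.306, -0.316 and -0.263). Among differently numbered pairs it was 0.482 for digenic replicate 2 with Pkhd1-/- replicate 3. For digenic replicate 3 with Pkhd1-/- replicate 2 it was 0.376, and for the rest -0.199 to -0.103. Whether libraries share a structure that the numbers do not give was not tested. The block by replicate number kept 23 of the 44 calls. Of 172 named genes that were not called 4 changed sign. By more than 1 SE these were Plin1, which was 0.52 without Pkhd1-/- replicate 1 (-1.88 to 0.52 over all libraries left out), and Hyou1, which was -0.095 without digenic replicate 2 (-0.095 to 0.46). Within 1 SE they were Ddx3y and Kdm5d, at 0.617 and 0.995, and at -0.46 and -0.17 with sex as a covariate. Counting error was not split from the spread between libraries.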
